A study of Mus musculus with 64 samples.

Results

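The genes described are the Hox genes and other developmental transcription factors of the mouse: all 39 Hox genes, the numbered members of the Nkx, Pax, Tbx, Lhx, Onecut, Gata, Dlx, Sox and sine oculis homeobox families (the last holding Six3 and Six4), and Wt1. They were chosen by symbol, with no use of measured values and no filter on expression, and numbered 124 of the 48795 genes in the counts table. The families held 39 Hox, 19 Sox, 14 Nkx, 13 Tbx, 9 Pax, 8 Lhx, 6 Dlx, 6 Gata, 6 sine oculis homeobox and 3 Onecut genes, besides Wt1. RNA of striatum and cerebral cortex was sequenced from 32 C57BL/6 mice aged 6 months, 8 per genotype (4 females and 4 males), giving 64 libraries. The 4 genotypes were Q140 Polq+/-, Q140, Polq+/- and wild type. Q140 is an expanded CAG tract knocked into the mouse huntingtin gene (Htt) and was heterozygous in both groups that carried it, which are called carriers below. Polq encodes DNA polymerase theta, an enzyme that joins broken DNA ends, and mice of both Polq+/- groups are labelled heterozygous for it.

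Hox proteins bind DNA through a homeodomain and give body segments their identity along the head-to-tail axis. Their genes lie in 4 clusters, and in the brain they act in the hindbrain and spinal cord, while the forebrain normally keeps them silent through Polycomb complexes, which place and read repressive histone marks. Members of the other families direct the forming forebrain and remain active in subsets of adult cells: Dlx, Six3 and Nkx2-1 in GABAergic neurons and their precursors, Lhx2 in cortex, Sox8, Sox9 and Sox10 in glia, and Sox17 and Sox18 in blood vessels. Huntington's disease, which the Q140 allele models, most affects the spiny projection neurons of the striatum.

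Total gene counts were 28.7 to 40.6 M per striatal library and 30.9 to 40.1 M per cortical library. The lowest, median and highest Polq level was 0.187, 1.81 and 2.36 CPM (gene counts scaled to library size) in Q140 Polq+/- striatum, against 2.24, 3.25 and 3.5 CPM in Q140 striatum, and 0.376, 1.72 and 2.42 CPM in Polq+/- striatum, against 2.46, 3.11 and 4.08 CPM in wild-type striatum. In 4 mice labelled Polq+/- it was far below the level of the others: 0.299, 0.187 and 0.245 CPM in Q140 Polq+/- female 3, female 4 and male 3, and 0.376 CPM in Polq+/- male 3. Without these 4 mice, 3 results on the genes described no longer passed the threshold: Nkx2-9 in Q140 against wild type (adjusted p = 0.0662), Sox18 in Q140 Polq+/- against Polq+/- (adjusted p = 0.0599) and Lhx2 in carriers against non-carriers (adjusted p = 0.117), in edgeR. The summed level of 18 spiny neuron markers checked the tissue labels: in wild-type mice the striatal libraries held 20757 to 25136 CPM of it and the cortical libraries 1416 to 1478 CPM. In the striatal library of wild-type male 2, the cerebellar genes Cbln1 and Cbln3 had 1299 and 2276 counts, against 24 to 34 and 3 to 12 counts in the other 7 wild-type libraries, and choroid plexus markers reached 1436 summed CPM in 1 Polq+/- library (female 3). Htt was at 137 CPM in the striatal library of wild-type male 3, against 209 to 220 CPM in the other 7 wild-type libraries. Results given below that missed the threshold without these 3 libraries are named beside their values.

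Wt1, Onecut1, Hoxa7 and Sox11 were higher in the striatum of Q140 carriers on both Polq backgrounds, with every carrier library above every non-carrier library of the same comparison. The share of all genes whose groups separated in this way is not given here. In Q140 against wild type 16.9% of all genes were called higher, and in Q140 Polq+/- against Polq+/- 16.1%. Sox11, which was expressed in all groups, passed the edgeR quasi-likelihood test over all genes in both comparisons. Wt1, Onecut1 and Hoxa7 lay below the low-count filter in the non-carriers and passed it only through the carriers. A difference between the groups thus followed from their being tested. Their ranks, adjusted p-values and lack of overlap are a description. Wt1 ranked 1 by fold change among the 18270 genes tested in striatum in both comparisons, Onecut1 ranked 3 in both, Hoxa7 ranked 4 in Q140 against wild type and 16 in Q140 Polq+/- against Polq+/-, and Sox11 ranked 64 and 155 in the same comparisons. The 2 comparisons share no library. In bulk tissue, more cells that express a gene and more RNA per cell cannot be told apart.

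Wt1 (chr2:105126529-105173616, plus strand, GRCm38) encodes a zinc-finger factor of kidney and gonad development. Its lowest, median and highest count in striatum was 34, 58 and 86 in Q140 libraries, against 0, 2 and 4 in wild-type libraries. The corresponding counts were 29, 69.5 and 100 in Q140 Polq+/- libraries, against 0, 2 and 3 in Polq+/- libraries. Every carrier library was thus above every non-carrier library. Wt1 rose by 4.98 ± 0.296 on the log2 scale in Q140 against wild-type striatum (SE, n = 8 each, adjusted p = 5.76e-16) and by 5.32 ± 0.310 in Q140 Polq+/- against Polq+/- striatum (adjusted p = 3e-16). Summed over 16 libraries each, carriers had 1017 Wt1 counts and non-carriers 28, a depth-scaled ratio of 39.6 (95% exact interval 27.3 to 59.9, counting error only). Even so, the level in carriers was low, at 0.302 ± 0.0864 FPKM (fragments scaled by gene length and library total) in Q140 striatum, against 0.00891 ± 0.00528 FPKM in wild-type striatum (SD, n = 8 each). The antisense gene Wt1os had no count in any striatal library.

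Onecut1 (chr9:74861921-74891781, plus strand), a cut-homeodomain factor of liver, pancreas and motor neurons, had 9, 21.5 and 27 counts (lowest, median, highest) in Q140 striatum, against 0, 1 and 3 in wild-type striatum. It had 10, 20.5 and 33 counts in Q140 Polq+/- striatum, against 0, 1.5 and 4 in Polq+/- striatum. The groups did not overlap. Onecut1 rose by 4.12 ± 0.441 (log2, SE; adjusted p = 1.58e-09) in Q140 against wild type and by 3.39 ± 0.410 (adjusted p = 2.37e-08) in Q140 Polq+/- against Polq+/-. Its paralogue Onecut2 was an abundant striatal gene, and carriers exceeded non-carriers by 0.26 ± 0.0845 (log2, SE, 16 against 16 mice, adjusted p = 0.0140). Onecut2 reached adjusted p = 0.161 in Q140 against wild type and 0.0656 in Q140 Polq+/- against Polq+/-, with 7 of 8 libraries above the other group's median in each.

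Hoxa7 (chr6:52214491-52221854, minus strand), which patterns the trunk in the embryo, was the 1 Hox gene of 39 that passed the filter in striatum. It had 7, 12 and 19 counts (lowest, median, highest) in Q140 libraries, against 0, 1 and 5 in wild-type libraries, and 9, 11 and 19 counts in Q140 Polq+/- libraries, against 3, 4 and 5 in Polq+/- libraries. No carrier library overlapped a non-carrier library. Hoxa7 rose by 3.05 ± 0.336 (log2, SE; adjusted p = 3.2e-09) in Q140 against wild type and by 1.47 ± 0.280 (adjusted p = 6.98e-05) in Q140 Polq+/- against Polq+/-. Polq+/- libraries summed to 33 Hoxa7 counts and wild-type libraries to 12. That difference had an adjusted p of 0.583 (unadjusted 0.00123), and the difference between the 2 Q140 effects an adjusted p of 0.996 (unadjusted 0.00189). Hoxa7 overlaps the antisense gene Hoxaas3, which had 0 counts in Q140 Polq+/-, 2 in Q140, 2 in Polq+/- and 1 in wild-type striatum.

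Sox11 (chr12:27334264-27342574, minus strand), a high-mobility-group factor of immature neurons, was expressed in every striatal library. Its lowest, median and highest level was 26.8, 30.4 and 36.3 CPM in Q140 striatum, against 14, 16 and 18.2 CPM in wild-type striatum. It was 21.6, 31.0 and 34.2 CPM in Q140 Polq+/- striatum, against 13.5, 16.7 and 20.5 CPM in Polq+/- striatum. Here too no carrier library fell among the non-carriers. Sox11 rose by 0.94 ± 0.0831 (log2, SE; adjusted p = 9.85e-11) in Q140 against wild type and by 0.79 ± 0.0828 (adjusted p = 3.92e-09) in Q140 Polq+/- against Polq+/-. Sox4 and Sox12 form the SoxC group with Sox11. Sox4 changed by 0.16 ± 0.168 (adjusted p = 0.521) and -0.05 ± 0.168 (adjusted p = 0.873) in these comparisons, while Sox12 fell by 0.21 ± 0.0734 (adjusted p = 0.0283) in Q140 against wild type and differed by 0.00 ± 0.0732 (adjusted p = 0.989) in Q140 Polq+/- against Polq+/-.

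**Figure D1:**
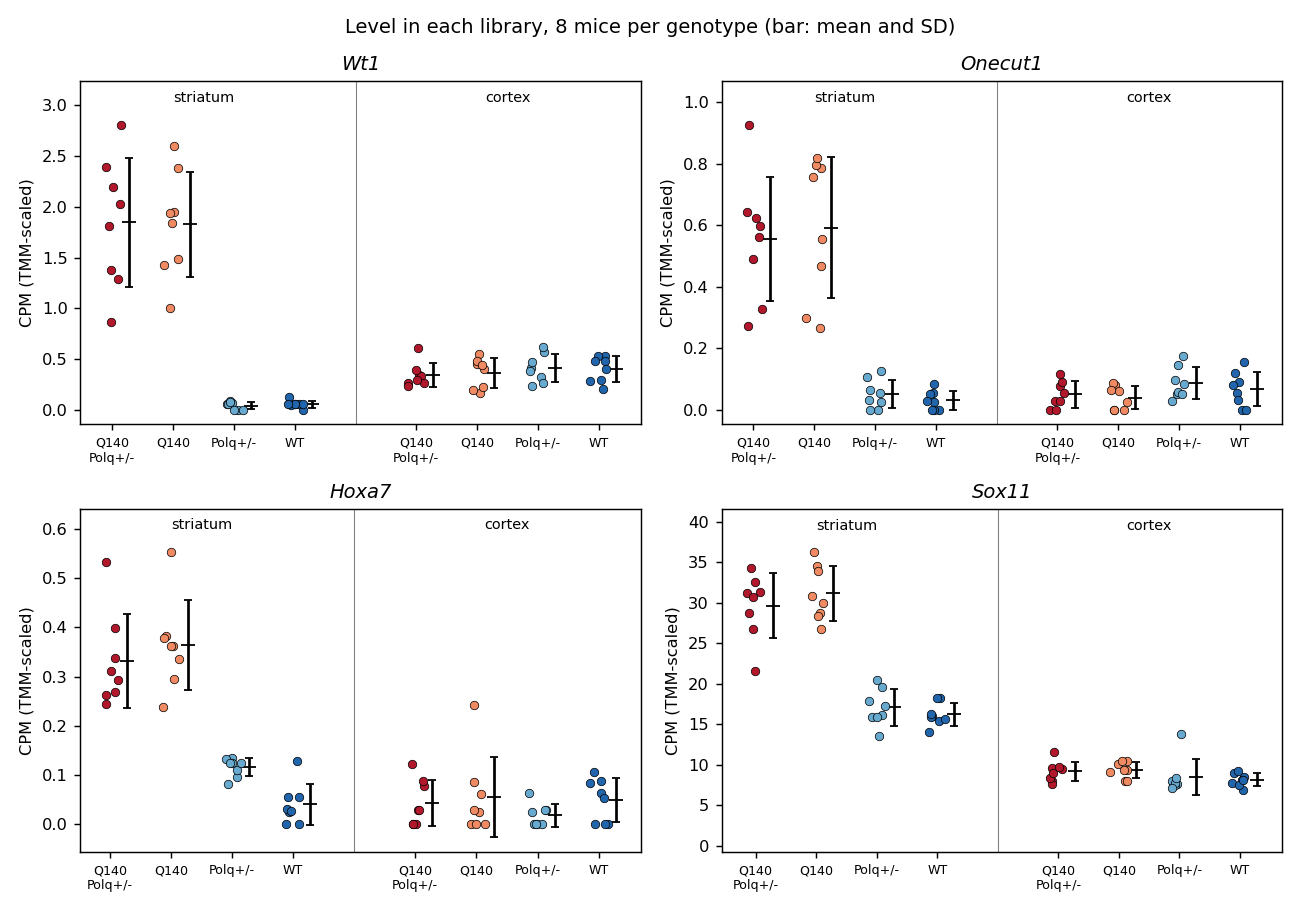
CPM of Wt1, Onecut1, Hoxa7 and Sox11 in every library (points), striatum left and cortex right, in Q140 Polq+/-, Q140, Polq+/- and wild-type mice, 8 per group, with group means. In striatum the 16 carrier libraries lie above the 16 non-carrier libraries for all 4 genes, and in cortex the 4 groups overlap.

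The promoter windows of the 3 of these genes found in the RefSeq promoter table (GRCm38.p6, 250 bases before to 50 after the start) are shown because they differ in CG dinucleotides, the sites at which DNA is methylated, which are in capitals and read 5′ to 3′ on the gene's strand. They lie at chr9:74861671-74861970 (plus strand, Onecut1), chr6:52218524-52218823 (minus strand, Hoxa7, inside the annotated gene span) and chr12:27342669-27342968 (minus strand, Sox11).
Onecut1: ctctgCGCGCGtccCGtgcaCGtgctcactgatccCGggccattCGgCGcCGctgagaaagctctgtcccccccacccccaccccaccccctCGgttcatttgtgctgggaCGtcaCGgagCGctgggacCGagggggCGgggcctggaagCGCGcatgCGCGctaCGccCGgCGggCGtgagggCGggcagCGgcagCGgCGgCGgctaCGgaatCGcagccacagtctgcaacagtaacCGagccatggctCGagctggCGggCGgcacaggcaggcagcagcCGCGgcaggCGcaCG
Hoxa7: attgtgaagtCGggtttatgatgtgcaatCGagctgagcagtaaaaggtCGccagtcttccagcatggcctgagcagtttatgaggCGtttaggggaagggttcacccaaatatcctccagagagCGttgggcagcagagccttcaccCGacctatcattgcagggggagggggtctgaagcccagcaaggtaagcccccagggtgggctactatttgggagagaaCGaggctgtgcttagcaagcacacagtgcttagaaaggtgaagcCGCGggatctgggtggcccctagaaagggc
Sox11: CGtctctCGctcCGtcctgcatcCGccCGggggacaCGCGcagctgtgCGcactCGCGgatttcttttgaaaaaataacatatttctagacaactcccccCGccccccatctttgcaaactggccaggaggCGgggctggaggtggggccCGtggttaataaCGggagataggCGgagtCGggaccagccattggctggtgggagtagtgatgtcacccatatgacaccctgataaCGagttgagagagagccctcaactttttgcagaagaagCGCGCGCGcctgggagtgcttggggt

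The Onecut1 window held 38 CG dinucleotides at 73% G+C, more than 95% of the 32851 windows in the table, the Sox11 window held 21 (more than 75.2% of windows) and the Hoxa7 window held 9 (more than 54.2%). The letters GGGCGG, the GC box, on either strand, occurred 3 times in the Onecut1 window, 2 times in that of Sox11 and not in that of Hoxa7. On either strand, 35.7% of all windows held GGGCGG, 37.4% held CCAAT and 13.6% held TATAAA, and CCAAT occurred 1 time in the Sox11 window. The table matched 81 of the 124 genes, and their 100 windows had a median of 17 CG dinucleotides, against 7 over all windows.

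Most of the 124 genes were silent or nearly so in adult striatum. In striatum 44 were tested and 80 lay below the filter, of which 27 had no count in any of the 32 libraries, 42 had fewer than 20 counts in every genotype and 11 reached 20 or more. In Q140 against wild type, 7 of the 44 were higher and 3 lower at an adjusted p under 0.05, where 16.9% and 15.2% of all 18270 genes were called higher and lower. In Q140 Polq+/- against Polq+/-, 6 were higher and 4 lower, where 16.1% and 15.3% of all genes were called. In all 16 carriers against all 16 non-carriers, which reuse the same libraries, 8 were higher and 7 lower, where 23.6% and 21.2% of all genes were called. Wt1, Onecut1 and Hoxa7, which were tested only through the carriers, were among the higher genes each time. The counts of higher genes are therefore a description beside the shares of all genes. On deposited FPKM, which are not rescaled for composition, 74.7% of all calls for Q140 against wild type were higher, against 52.7% in the edgeR fit. There 8 of the 44 genes were higher and 2 lower in Q140 against wild type, where 29.3% and 9.91% of all genes were called. On the same scale 8 were higher and 2 lower in Q140 Polq+/- against Polq+/-, where 30.3% and 9.63% of all genes were called, and 8 were higher and 3 lower in carriers against non-carriers, where 39.3% and 13.1% were called.

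Of the GABAergic neuron factors, Dlx5 and Six3 rose slightly and Dlx6 fell slightly in carriers. Dlx5, a homeodomain factor needed for forebrain GABAergic neurons, had 25, 27.2 and 28.7 CPM (lowest, median, highest) in Q140 striatum, against 23.5, 23.8 and 25.5 CPM in wild-type striatum. It rose by 0.16 ± 0.0335 (log2, SE; adjusted p = 0.000243), and by 0.13 ± 0.0335 (adjusted p = 0.00182) in Q140 Polq+/- against Polq+/-. Dlx6, its neighbour on chromosome 6, had 42.4, 44.8 and 46.4 CPM in Q140 striatum, against 46.0, 52.6 and 56.5 CPM in wild-type striatum. It fell by 0.23 ± 0.0361 (adjusted p = 3.12e-06), and by 0.19 ± 0.0361 (adjusted p = 6.94e-05) in Q140 Polq+/- against Polq+/-. The ranges of these 2 genes touched or overlapped, but all 8 carrier libraries lay on the same side of the non-carrier median in each comparison.

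Six3, which sets up the anterior forebrain and, later, spiny neurons of the indirect pathway, had 90.2, 95.6 and 102 CPM in Q140 striatum, against 81.3, 87.8 and 92.6 CPM in wild-type striatum. It rose by 0.12 ± 0.0326 (log2, SE; adjusted p = 0.00553), and by 0.14 ± 0.0327 (adjusted p = 0.000603) in Q140 Polq+/- against Polq+/-, with 8 of 8 libraries above the other group's median in both. Dlx6 and Six3 overlap the antisense genes Dlx6os1 and Six3os1, and reads of the partners may be shared, since no source used here states whether strand was used in counting. Dlx6os1 changed by -0.02 ± 0.0411 (adjusted p = 0.797) in Q140 against wild type and by -0.18 ± 0.0411 (adjusted p = 0.000891) in Q140 Polq+/- against Polq+/-. Beside these genes, 17 of 18 spiny neuron markers fell in Q140 against wild type and 16 fell and 1 rose in Q140 Polq+/- against Polq+/-, with summed levels of 13317 to 15557 CPM in Q140 and 20757 to 25136 CPM in wild-type striatum, and 14072 to 15304 CPM in Q140 Polq+/- and 22530 to 23944 CPM in Polq+/- striatum. The shares of all genes called lower in these comparisons were 15.2% and 15.3%. The part of the spiny neuron markers in the results was not tested.

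Among the other regulators of forebrain neurons, Nkx2-1, Lhx6, Lhx8 and Dlx1 did not pass the threshold. Nkx2-1, which specifies ventral interneurons, changed by 0.02 ± 0.0832 (log2, SE; adjusted p = 0.892) in Q140 against wild type, Lhx6, its target in those cells, by 0.03 ± 0.0519 (adjusted p = 0.683), and Lhx8, a factor of cholinergic neurons, by -0.02 ± 0.0687 (adjusted p = 0.851). Dlx1, another GABAergic factor, varied widely between libraries and changed by 0.18 ± 0.241 (adjusted p = 0.616). Nkx2-9 averaged 1.23 ± 0.378 CPM in Q140 and 0.892 ± 0.257 CPM in wild-type striatum (SD, n = 8 each) and rose by 0.45 ± 0.177 (adjusted p = 0.0479), while in Q140 Polq+/- against Polq+/- the change was 0.39 ± 0.182 (adjusted p = 0.105). Lhx2, a cortical selector gene, differed by -0.09 ± 0.0349 between 16 carriers and 16 non-carriers (adjusted p = 0.0390). The change of Nkx2-9 in Q140 against wild type missed the threshold in 30 of 45 alternatives, and that of Lhx2 in 23 of 45. In carriers against non-carriers Nkx2-9 rose by 0.42 ± 0.127 (adjusted p = 0.00658), which held in 45 of 45 alternatives.

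Among glial and vascular factors the changes were falls. Sox9, an astrocyte factor, had 19.6, 24.3 and 30.9 CPM (lowest, median, highest) in Q140 striatum, against 26.1, 28.5 and 33.6 CPM in wild-type striatum, with overlapping ranges. It fell by 0.23 ± 0.0681 (log2, SE; adjusted p = 0.00728), whereas Q140 Polq+/- differed from Polq+/- by -0.09 ± 0.0679 (adjusted p = 0.331). The oligodendrocyte factors Sox8 and Sox10 changed by -0.07 ± 0.0574 (adjusted p = 0.368) and -0.10 ± 0.0648 (adjusted p = 0.279) in Q140 against wild type. Of 12 astrocyte markers, 2 fell and none rose in Q140 against wild type (1 rose and none fell on FPKM), with summed levels of 4381 to 4800 CPM in Q140 and 4407 to 5334 CPM in wild-type striatum. In Q140 Polq+/- against Polq+/-, 4 fell and 1 rose (1 fell and 1 rose on FPKM). Summed levels there were 4376 to 4831 CPM in Q140 Polq+/- and 4867 to 5641 CPM in Polq+/- striatum. Of all genes, 15.2% were called lower in Q140 against wild type and 15.3% in Q140 Polq+/- against Polq+/- (9.91% and 9.63% on FPKM). The shares called higher were 16.9% and 16.1% (29.3% and 30.3% on FPKM).

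Sox17 and Sox18, which act in arterial and lymphatic endothelium, fell in Q140 Polq+/- against Polq+/- striatum. Sox17 had 5.92, 7.20 and 7.94 CPM in Q140 Polq+/- libraries, against 5.65, 9.11 and 10 CPM in Polq+/- libraries, and fell by 0.30 ± 0.0876 (log2, SE; adjusted p = 0.00764). Sox18 had 3.21, 4.35 and 6.74 CPM in Q140 Polq+/- libraries, against 5.62, 5.99 and 8.24 CPM in Polq+/- libraries, and fell by 0.44 ± 0.153 (adjusted p = 0.0262). Both ranges overlapped. In Q140 against wild type Sox17 changed by -0.18 ± 0.0873 (adjusted p = 0.118) and Sox18 by -0.20 ± 0.152 (adjusted p = 0.334). Tbx18, a factor of mural and meningeal cells, differed by -0.30 ± 0.103 between 16 carriers and 16 non-carriers (adjusted p = 0.0166). Tbx6, known from paraxial mesoderm, fell by 0.40 ± 0.158 (adjusted p = 0.0497) in Q140 Polq+/- against Polq+/-, a change that missed the threshold in 30 of 45 alternatives. In carriers against non-carriers it fell by 0.36 ± 0.113 (adjusted p = 0.00881), which held in 44 of 45 alternatives, the exception being a term for the plate column. On the FPKM scale the falls of Sox12, Sox17 (in Q140 Polq+/- against Polq+/-), Sox18 (in all carriers), Tbx6 (in Q140 Polq+/- against Polq+/-) and Tbx18 no longer passed the threshold.

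Of 10 endothelial markers, 7 fell in Q140 against wild type and 6 in Q140 Polq+/- against Polq+/-, and none rose. The shares of all genes called lower in these comparisons were 15.2% and 15.3%. On FPKM the counts were 5 in Q140 against wild type and 0 in Q140 Polq+/- against Polq+/-. There 9.91% and 9.63% of all genes were called lower. The summed level of these markers in CPM was 218 to 238 CPM in Q140 and 250 to 275 CPM in wild-type striatum, and 219 to 254 CPM in Q140 Polq+/- and 209 to 278 CPM in Polq+/- striatum. Of 14 mural and meningeal markers, 4 and 2 fell in the same comparisons (2 and 1 on FPKM), beside the same shares of all genes. Their summed level was 152 to 176 CPM in Q140 and 184 to 204 CPM in wild-type striatum. The part of these markers in the results was not tested.

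**Figure D2:**
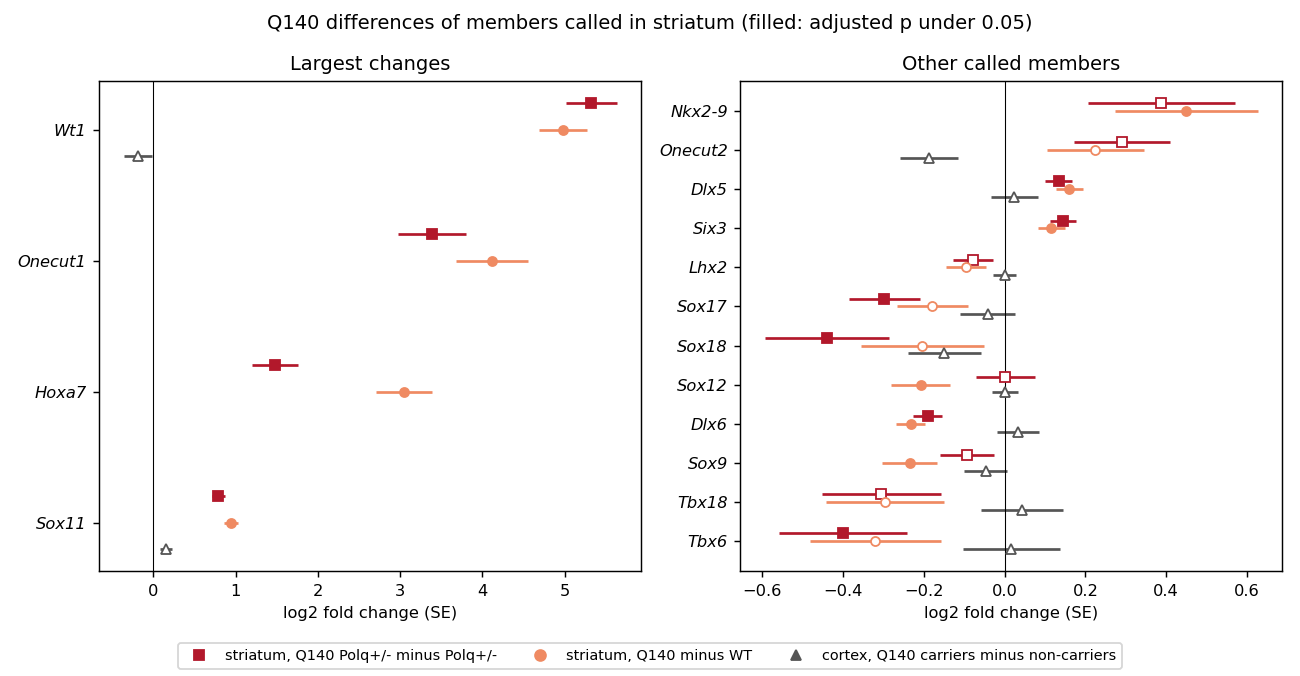
Log2 fold change with SE (edgeR) of the 16 genes called in any comparison between genotypes, in striatum on both Polq backgrounds and in cortex for carriers against non-carriers; filled points have an adjusted p under 0.05. Wt1, Onecut1, Hoxa7 and Sox11 stand to the right in both striatal comparisons, the striatal points of the other 12 genes lie within 0.45 of 0, no cortical point is filled, and genes below the filter in cortex have no cortical point.

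The remaining Hox genes were close to silent in striatum, and 21 of 39 had no count in any of the 32 libraries. All Hox counts summed to 190 in Q140 and 73 in wild-type striatum, and to 164 in Q140 Polq+/- and 87 in Polq+/- striatum. Without Hoxa7 the sums were 93 in Q140 and 61 in wild type, and 70 in Q140 Polq+/- and 54 in Polq+/-. By cluster, Hoxa genes summed to 104 counts in Q140 and 13 in wild type, and to 98 in Q140 Polq+/- and 40 in Polq+/-. Hoxc genes summed to 25 in Q140 and 6 in wild type, and to 28 in Q140 Polq+/- and 5 in Polq+/-. Hoxb genes had 15, 11, 12 and 13 counts in Q140, wild-type, Q140 Polq+/- and Polq+/- striatum and Hoxd genes 46, 43, 26 and 29, with no separation by Q140. Hoxd1, an anterior patterning gene and the Hox gene of the highest FPKM in wild-type striatum (0.0734 ± 0.0312, SD, n = 8), had 67 counts in carriers and 69 in non-carriers.

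Within the Hoxc cluster most counts of the carriers came from Hoxc4, Hoxc5 and Hoxc6, neighbouring genes that pattern the neck and upper trunk and were singled out after their values were seen. Hoxc4 had 17 counts in 7 of 16 carrier libraries and none in 16 non-carrier libraries. Its depth-scaled ratio to a floor of 3 counts over the non-carrier group was 6.18. That ratio leaves out the counting error of the carriers and is not a lower limit. Hoxc5 had 7 counts in 6 carrier libraries and none in non-carriers, a ratio of 2.55 to the same floor, with the same limit. Hoxc6 had 27 counts in carriers and 6 in non-carriers, a depth-scaled ratio of 4.91 (95% exact interval 1.99 to 14.5). Hoxc5 overlaps Hoxc6 on the same strand, so reads may be split between them. In a fit with no low-count filter, where 24.4% of 32496 genes were called for carriers against non-carriers, adjusted p was 0.00174 for Hoxc4, 0.0166 for Hoxc5 and 0.0130 for Hoxc6. None of these 3 passed in both separate comparisons. In that fit the adjusted p in Q140 against wild type was 0.0753 for Hoxc4, 0.107 for Hoxc5 and 0.0402 for Hoxc6, and in Q140 Polq+/- against Polq+/- 0.0233 for Hoxc4, 0.189 for Hoxc5 and 0.332 for Hoxc6. Of 9 hindbrain and spinal cord markers, 1 was tested and none changed, and their summed level was 0.467 to 1.34 CPM in Q140 and 0.583 to 3.33 CPM in wild-type striatum.

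**Figure D3:**
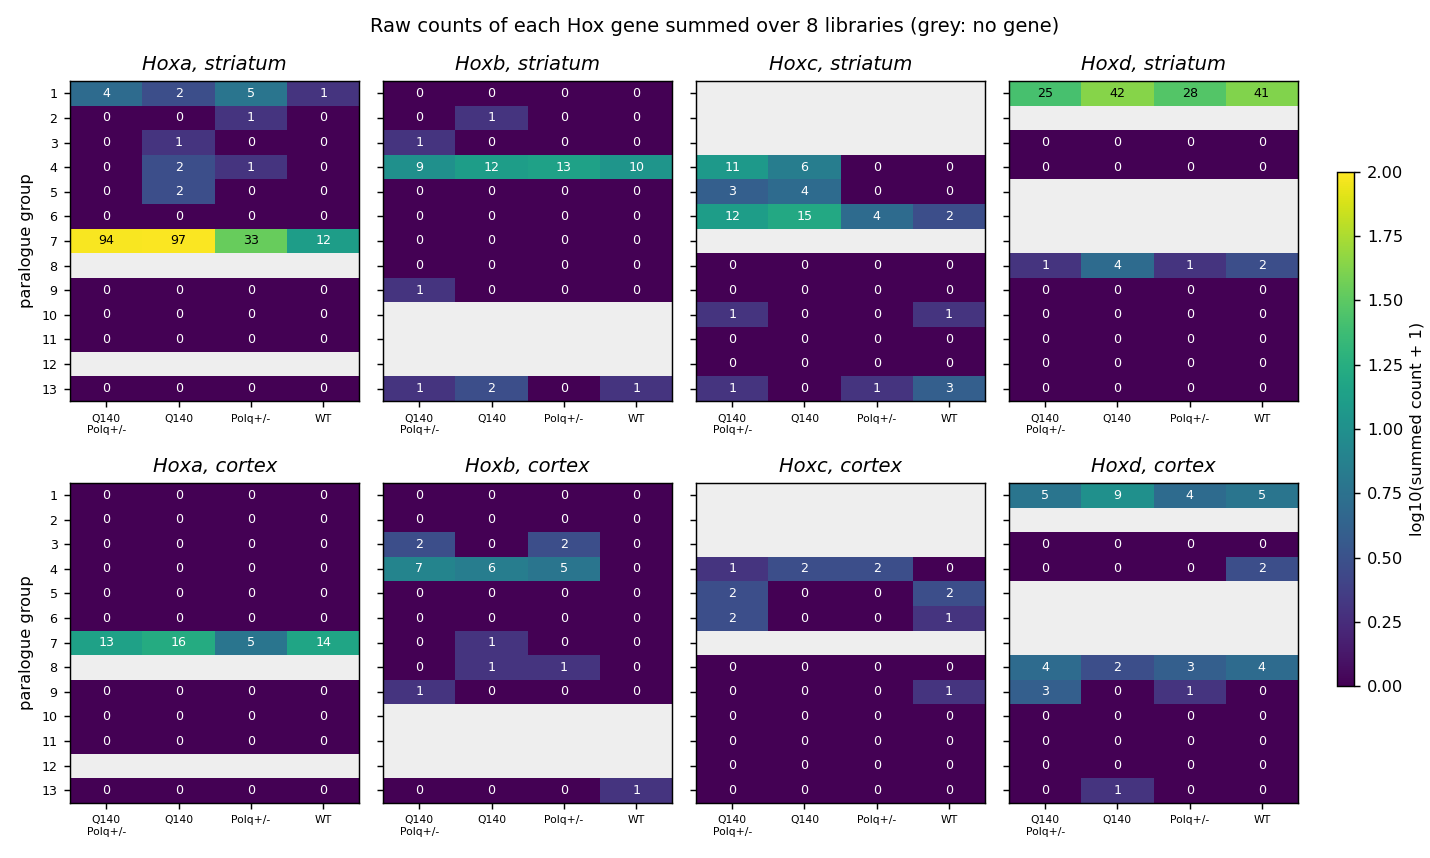
Raw counts of the 39 Hox genes summed over the 8 libraries of each genotype, by cluster and paralogue group, in striatum and cortex. Hoxa7 stands out in both striatal carrier groups with 94 and 97 counts, Hoxd1 has 25 to 42 counts in the 4 striatal groups, and most cells are 0.

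The other genes below the filter in striatum were low in all 4 genotypes. The same fit with no filter covered 53 low genes, the Hoxc genes above among them. It called 3 in Q140 against wild type (Hoxc6, Tbx5 and Lhx1), where 16.5% of genes were called. In Q140 Polq+/- against Polq+/- it called 2 (Hoxc4 and Tbx20), where 16.3% were called. In carriers against non-carriers it called 6 of the 53, where 24.4% were called. Tbx5, a forelimb and heart factor, had 25 counts in carriers and 4 in non-carriers (ratio 6.82, 95% exact interval 2.35 to 27), and Tbx20, a heart and motor neuron factor, had 16 counts in carriers and 44 in non-carriers (ratio 0.397, interval 0.209 to 0.717). Both were singled out after their values were seen. Lhx1, a Purkinje and kidney factor, had 3 counts in Q140 and 109 in wild-type striatum, but 101 of these were in the library of wild-type male 2, and so were 13 of 14 counts of Pax2 and 12 of 15 counts of Lhx5. Counts in Q140, wild-type, Q140 Polq+/- and Polq+/- striatum, each summed over 8 libraries, were 17, 14, 25 and 25 for Dlx3, 56, 51, 61 and 73 for Dlx4, and 15, 16, 27 and 32 for Lhx9. In the same order they were 15, 26, 14 and 9 for Lhx3, 24, 26, 25 and 29 for Nkx6-1, 21, 21, 30 and 27 for Pax1, 19, 35, 14 and 16 for Pax5, and 22, 30, 27 and 21 for Sox30. None of these 8 was called in the fit with no filter.

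The Polq genotype was not accompanied by a called change in any of these genes. In Polq+/- against wild-type striatum, 0 of 44 genes passed in edgeR and 0 in DESeq2, 1 had an unadjusted p under 0.05, and 0.0493% of all genes were called. In Q140 Polq+/- against Q140 striatum, 0 passed in both tools, 1 had an unadjusted p under 0.05 and 0.0547% of all genes were called. These comparisons share the wild-type and the Q140 libraries with Q140 against wild type. The Q140 effect in Polq+/- mice minus that in mice not labelled Polq+/- gave 0 calls among these genes in both tools, 2 with an unadjusted p under 0.05, and 0% of all genes were called.

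In cortex none of these genes passed the threshold in any comparison between genotypes in edgeR. In cortex 43 were tested, no Hox gene passed the filter, and of the 81 below it 32 had no count in any library, 39 had fewer than 20 counts in every genotype and 10 reached 20 or more. In Q140 against wild-type cortex, 0 of 43 passed (3 at an unadjusted p under 0.05, 0 in DESeq2), where 0.348% of all 18116 genes were called, and in Q140 Polq+/- against Polq+/- cortex 0 passed (4 at an unadjusted p under 0.05, 0 in DESeq2), where 0.337% were called. For Polq+/- against wild type 0 passed (1 unadjusted, 0 in DESeq2; 0.0442% of genes called), for Q140 Polq+/- against Q140 0 passed (1 unadjusted, 0 in DESeq2; 0.0552% called), and for the difference between the 2 Q140 effects 0 passed (2 unadjusted, 0 in DESeq2; 0% called). In carriers against non-carriers, 0 passed in edgeR (4 unadjusted, 1 in DESeq2), where 2.46% were called, and the smallest adjusted p, 0.0664, was that of Sox3.

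Sox3, a neural progenitor factor on the X chromosome, averaged 0.702 ± 0.178 CPM in Q140 and 0.545 ± 0.181 CPM in wild-type cortex, and 0.744 ± 0.194 CPM in Q140 Polq+/- and 0.508 ± 0.137 CPM in Polq+/- cortex (SD, n = 8 each). The groups overlapped, with 14 of 16 carriers above the non-carrier median and a log2 difference of 0.46 ± 0.139 (SE). It was the gene that DESeq2 called, at an adjusted p of 0.0457. Sox11 in cortex differed by 0.16 between carriers and non-carriers (adjusted p = 0.314), and by 0.22 ± 0.0517 (adjusted p = 0.0102) without Polq+/- female 4, whose 13.8 CPM was the highest cortical value.

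Wt1 in cortex had 5, 14.5 and 18 counts (lowest, median, highest) in Q140 libraries, against 7, 14.5 and 20 in wild-type libraries, and 8, 11.5 and 21 in Q140 Polq+/- libraries, against 9, 13 and 21 in Polq+/- libraries. Onecut1 summed to 11 counts in Q140 and 18 in wild-type cortex, and to 14 in Q140 Polq+/- and 24 in Polq+/- cortex, and Hoxa7 to 16 and 14, and to 13 and 5, in the same groups. Sox11 averaged 9.34 ± 1 CPM in Q140 and 8.13 ± 0.796 CPM in wild-type cortex, and 9.16 ± 1.22 CPM in Q140 Polq+/- and 8.49 ± 2.18 CPM in Polq+/- cortex (SD, n = 8 each). The 4 genes that rose in striatum thus had overlapping groups in cortex. All Hox counts summed to 38 in Q140 and 30 in wild-type cortex, and to 40 in Q140 Polq+/- and 23 in Polq+/- cortex.

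The Q140 effect itself differed between the tissues for 9 of 50 genes tested in a fit of 64 libraries that blocked on the mouse. It was higher in striatum than in cortex for 4 and lower for 5, where 15.7% and 16.3% of 19091 genes were called. On FPKM it was higher for 7 and lower for 2, where 27.7% and 10.8% of genes were called. The difference was 5.30 ± 0.316 for Wt1 (log2, SE; adjusted p = 2.29e-17), 4.46 ± 0.569 for Onecut1 (adjusted p = 2.83e-08), 0.70 ± 0.0884 for Sox11 (adjusted p = 1.25e-07) and 0.45 ± 0.105 for Onecut2 (adjusted p = 0.00119). For Hoxa7 it was 1.63 ± 0.709 (adjusted p = 0.0770), short of the threshold. Onecut1 and Hoxa7 lay below the filter in cortex and in striatal non-carriers, and entered this fit only through the striatal carriers. Their differences, and the place of Onecut1 among the 9, are therefore a description. The lower group comprised Dlx6 at -0.25 ± 0.0574 (adjusted p = 0.000573), Tbx6 (-0.40), Sox8 (-0.20), Sox17 (-0.19) and Sox18 (-0.17), the last 4 with adjusted p between 0.0197 and 0.0420. Of 5 alternatives to that fit, FPKM among them, the difference missed the threshold in 3 for Sox17 and in 4 for Sox18, in both cases also without the mice of the 3 striatal libraries that stood apart (adjusted p = 0.0579 for Sox17 and 0.114 for Sox18). For Sox8 and Tbx6 it was missed in 2 of 5 each.

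In wild-type mice, 18 of 50 genes were higher and 18 lower in striatum than in cortex, a share near that of all genes, of which 39.1% and 38.1% were called. Genes below the filter in either tissue entered this fit only through the other, so these counts are a description. Per length, the highest striatal levels were 26.1 ± 2.53 FPKM for Sox8, 21.6 ± 2.64 for Sox10, 21.5 ± 1.22 for Dlx6, 15.8 ± 0.697 for Six3, 14.9 ± 2.16 for the stem cell factor Sox2 and 10.5 ± 0.448 for Dlx5 (SD, n = 8 each). Sox10 and Dlx6, and Six3 and Sox2, were closer than their SDs. In cortex the order was Lhx2 at 15.8 ± 0.791 FPKM, Sox2 at 14.9 ± 1.55, Sox8 at 11.3 ± 1.93 and Sox10 at 9.97 ± 0.681, of which Lhx2 and Sox2, and Sox8 and Sox10, were again within their SDs.

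Higher in striatum were Six3 by 10.21 ± 0.117 on the log2 scale (SE; adjusted p = 6.31e-40), Lhx8 by 8.72 ± 0.192, Nkx2-1 by 7.14 ± 0.245, Nkx2-9 by 3.91 ± 0.375, Onecut2 by 3.66 ± 0.0967, Dlx6 by 3.42 ± 0.0543 and Dlx5 by 2.32 ± 0.0578. Six3, Lhx8, Nkx2-1 and Nkx2-9 lay below the filter in cortex and entered this fit only through striatum. Their differences, and the adjusted p of Six3, are therefore a description. Over 5 alternatives the differences were 7.14 to 10.46 for Six3, 5.12 to 8.93 for Lhx8, 4.51 to 7.97 for Nkx2-1 and 2.50 to 3.91 for Nkx2-9. Sox8, Sox10 and Sox11 were each about 1 log2 unit higher, at 1.19 ± 0.0665, 1.09 ± 0.0490 and 0.95 ± 0.0903. Lower in striatum were Six4, a muscle and sensory ganglion factor, at -4.19 ± 0.174, Sox5, which acts in deep-layer cortical neurons, at -2.22 ± 0.0698, and Lhx2 at -1.41 ± 0.0401. Wt1 was lower in wild-type striatum than in wild-type cortex (0.0564 ± 0.0339 and 0.402 ± 0.126 CPM, SD, n = 8 each; adjusted p = 1.34e-08), whereas in Q140 mice it averaged 1.83 ± 0.519 CPM in striatum and 0.365 ± 0.147 CPM in cortex. Because Wt1 lay below the filter in the striatal non-carriers, its adjusted p is a description too. Tbx22, a palate factor, was at 0 in all 32 striatal libraries and had 139 counts in the 8 wild-type cortical libraries.

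**Figure D4:**
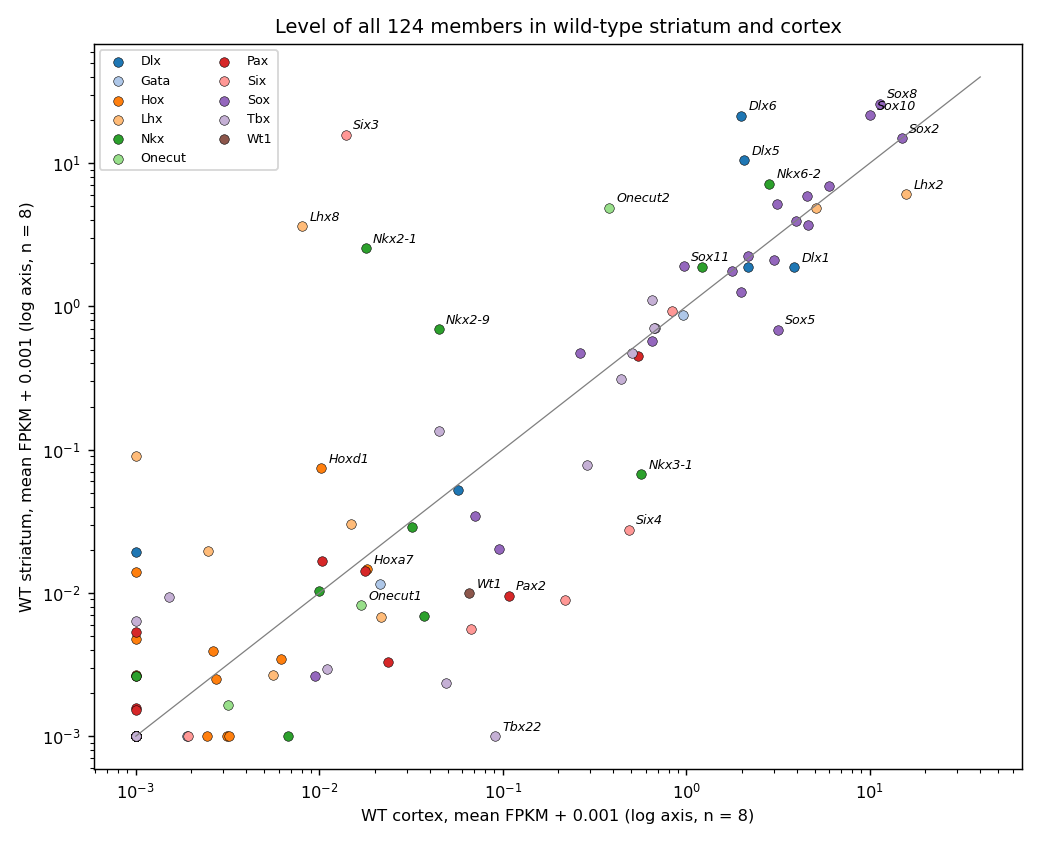
Mean FPKM of the 124 genes in wild-type striatum and wild-type cortex (n = 8 each), on log axes after adding 0.001, coloured by family. Six3, Lhx8 and Nkx2-1 lie far to the striatal side, Six4 and Lhx2 to the cortical side, and the Hox genes gather near 0 in both.

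Families differed in how many genes passed the filter in striatum, among them 16 of 19 Sox, 1 of 9 Pax and 1 of 6 Gata genes. Gata2, the blood and midbrain member, was the 1 Gata gene tested in striatum, at 0.870 ± 0.104 FPKM in wild-type mice, and changed by 0.08 ± 0.0980 (log2, SE; adjusted p = 0.564) in Q140 against wild type. Pax6, the eye and cortex factor, had 0.448 ± 0.142 FPKM and changed by -0.22 ± 0.110 (adjusted p = 0.124). Tbx1 and Tbx2, known from pharyngeal and limb development, had 1.1 ± 0.198 and 0.711 ± 0.0861 FPKM, and Nkx6-2, an oligodendrocyte factor, 7.19 ± 1.19 FPKM. None of these passed the threshold in either striatal comparison. In cortex, genes below the filter with 20 or more counts in a genotype were Gata6, Lhx9, Nkx1-2, Nkx6-1, Nkx6-3, Onecut1, Pax5, Sox15, Tbx21 and Tbx4, and without a filter none of 49 low genes was called in cortex between carriers and non-carriers, where 1.05% of genes were called.

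The proteins that work with Hox factors or keep these genes silent were also measured in striatum. Of 31 Polycomb subunits, 7 rose and 7 fell in Q140 against wild type and 5 rose and 7 fell in Q140 Polq+/- against Polq+/-, with medians of 0.03 and 0.04 (log2) beside 0.00 and 0.01 over all genes. On FPKM the count in Q140 against wild type was 13 higher and 1 lower, where 29.3% and 9.91% of all genes were called. Sfmbt2, a Polycomb partner, rose by 2.01 ± 0.107 (log2, SE; adjusted p = 3.83e-17) and 2.06 ± 0.107 (adjusted p = 1.95e-17). Cbx8, a reader of the repressive mark, rose by 0.67 ± 0.0821 in Q140 against wild type, and Rbbp7, a histone-binding subunit, fell by 0.21 ± 0.0315. Ezh2, Eed and Suz12, the core of the enzyme that writes the mark, changed by -0.00 ± 0.0720, 0.10 ± 0.0503 and 0.05 ± 0.0292, with adjusted p of 0.989, 0.112 and 0.170. Of 10 trithorax-group genes and demethylases, which oppose Polycomb, 6 rose and none fell in Q140 against wild type, among them Kdm6b by 0.27 ± 0.0849 (adjusted p = 0.0136). There 16.9% and 15.2% of all genes were called higher and lower. In Q140 Polq+/- against Polq+/-, 4 of the 10 rose and 1 fell, where 16.1% and 15.3% of all genes were called.

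Of 9 TALE homeodomain cofactors, which bind DNA together with Hox proteins, 3 fell and none rose in Q140 against wild type: Meis2 by 0.30 ± 0.0291, Pbx4 by 0.30 ± 0.0672 and Pknox1 by 0.13 ± 0.0423. In that comparison 16.9% and 15.2% of all genes were called higher and lower. On FPKM 3 rose and 2 fell, where 29.3% and 9.91% of all genes were called. In Q140 Polq+/- against Polq+/-, 3 fell and Meis1 rose by 0.39 ± 0.0755 (adjusted p = 0.000136). There 16.1% and 15.3% of all genes were called higher and lower. Of 33 tested among 74 other developmental transcription factors, 2 rose and 3 fell in Q140 against wild type, where 16.9% and 15.2% of all genes were called. Isl1, a factor of direct-pathway and cholinergic neurons, rose by 0.34 ± 0.0480 and Eya1, a transcriptional partner of Six3-related proteins, by 0.40 ± 0.0727, while Gbx1 fell by 0.65 ± 0.216 and Foxc1, a meningeal factor, by 0.31 ± 0.108 (SE; adjusted p from 5.98e-07 to 0.0265). Gbx1 no longer passed without the 3 striatal libraries that stood apart (adjusted p = 0.118) or without wild-type male 2 alone (adjusted p = 0.0656).

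Wt1 varied among the carriers, and its values by sex, looked at after they were seen, are given as a description with no test. In Q140 striatum it averaged 2.09 ± 0.517 CPM in females and 1.57 ± 0.425 CPM in males, and in Q140 Polq+/- striatum 2.36 ± 0.335 CPM in females and 1.34 ± 0.389 CPM in males (SD, n = 4 each). Over the 16 carriers, none of the 6 pairs among these 4 genes was correlated past adjustment. The largest Pearson r, 0.473 between Wt1 and Onecut1 (permutation p = 0.0647, adjusted 0.332; Spearman rho 0.438, permutation p = 0.0922), became 0.135 without the 2 libraries farthest from the median of Wt1.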

How the data were processed

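RNA of striatum and cortex from 32 mice (64 libraries) was extracted with RNeasy columns and made into TruSeq stranded libraries, per the labels' protocols. The authors aligned reads with STAR 2.7.5c, used SAMtools 1.10 and counted with HTSeq 0.12.3 on GRCm38 (mm10), per the submitters' processing notes. Whether strand was used in counting is not stated there. Raw counts per gene and FPKM were deposited, and the deposited FPKM are those counts divided by gene length and library total. Total counts were 28.7 to 40.6 M per library. The tables had 0 columns of other samples, and a GRCm38 annotation matched all 124 genes.

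Counts of the 32 libraries of a tissue were fitted together by edgeR 4.0.16 (R 4.3.3), using robust quasi-likelihood dispersions, TMM scaling, filterByExpr by genotype and a sex term, with Benjamini-Hochberg adjustment over all genes tested and a threshold of 0.05. Comparisons between tissues blocked on the mouse over 64 libraries. Intervals (95%) cover counting error only. The floor of 3 counts stands for a group with no count, and ratios to it leave out the counting error of the carriers. Replicates were separate mice. Permutation tests used Python 3.11.15 and SciPy 1.17.1.

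The genes named were those called between genotypes, the 2 of highest FPKM per family and tissue in wild type, those below the filter with 20 or more counts in a genotype, up to 4 per further list, Polq and Htt. The genes and lists were chosen with earlier results of these data known. Alternatives were DESeq2 1.42.0 and its size factors, limma 3.58.1 on log2(FPKM + 0.1) and log2(FPKM + 1), other filters, covariates, thresholds and sample sets, and leaving out each library in turn. The fits were tested on simulated data. Some single genes are not reported here.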

Additional observations from a re-analysis of the deposited data

Results flagged for a closer look

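Each group of 8 libraries was screened for a library far from the other 7 in the 16 genes called between genotypes, in 128 groups; chance marks about 1 group in 20, and 12 were marked. In striatum these were Hoxa7 in Q140 male 2 (0.554 CPM) and in wild-type female 4 (0.130 CPM), Wt1 in wild-type male 1 (0.126 CPM), Nkx2-9 in Q140 Polq+/- male 2 (1.43 CPM), Sox12 in Polq+/- male 1 (34.2 CPM), Sox18 in Polq+/- male 3 (8.24 CPM), all high, and Sox17 in Polq+/- male 1 (5.65 CPM), which was low. In cortex they were Dlx5 in Q140 male 2 (6.10 CPM), Hoxa7 in Q140 male 3 (0.243 CPM) and Polq+/- female 1 (0.0637 CPM), Wt1 in Q140 Polq+/- female 3 (0.605 CPM) and Sox11 in Polq+/- female 4 (13.8 CPM), all high.

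The Q140 effect differed between striatum and cortex, by a test of the difference in edgeR, for Wt1 (5.30 on the log2 scale), Onecut1 (4.46), Sox11 (0.70), Onecut2 (0.45), Dlx6 (-0.25), Tbx6 (-0.40), Sox8 (-0.20), Sox17 (-0.19) and Sox18 (-0.17). Onecut1 entered this test only through the striatal carriers, so that its value is a description. Sox8 itself passed the threshold in neither tissue.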

How the results depend on the processing

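No result reversed. Of 3050 alternative values for 108 results on single genes, 2919 kept their side of the threshold and 131 lost it; of 544 alternative counts, 534 stayed within 1.5 times. The calls of Sox11, Dlx5, Dlx6 and Six3 in striatum held under each alternative. Those of Wt1, Onecut1 and Hoxa7 held wherever they were tested. Because these genes passed the filter only through the carriers, this is a description and gives their calls no support. Only the groups compared, or a mean CPM of at least 0.5, could not test Hoxa7 and Onecut1 in each comparison. On FPKM + 1, a pseudocount above their levels, the log2 fold in Q140 against wild type was 0.37 for Wt1, 0.19 for Onecut1 and 0.15 for Hoxa7. In Q140 against wild type, Nkx2-9 was lost in 30 of 45 alternatives (adjusted p 0.0147 to 0.123) and Sox12 in 8 of 45, among them leaving out Q140 female 2, male 1 or male 2 or wild-type female 2 or female 4 (0.0525 to 0.0786). In Q140 Polq+/- against Polq+/-, Tbx6 was lost in 30 of 45 (0.0162 to 0.313) and Sox18 in 5 of 45, among them leaving out Polq+/- male 3 or Q140 Polq+/- male 1 or male 4 (0.0650 to 0.0685). Lhx2 was lost in 23 of 45.

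Leaving out 1 library, the number of these genes called in striatum was 8 to 10 for Q140 against wild type, 8 to 12 for Q140 Polq+/- against Polq+/- and 14 to 16 for carriers against non-carriers. In cortex it was 0 to 1 for carriers against non-carriers, 1 without Q140 Polq+/- female 4, Q140 male 2, Polq+/- female 2 or wild-type female 3 (Sox3 each time) or without Polq+/- female 4 (Sox11), and 1 (Sox3) with DESeq2, on FPKM + 0.1, on FPKM + 1 or at an adjusted p under 0.1. It was 0 for the other comparisons. Without the mouse block, 5 rather than 9 differed between tissues in the Q140 effect. Same-numbered mice shared little after group means were removed (48 pairs per tissue, median r 0.0202 in striatum and 0.0273 in cortex, 13 and 11 over 0.1), so the numbers were not taken to pair mice; with a replicate block 9 genes were called for Q140 against wild type, 11 for Q140 Polq+/- against Polq+/- and 17 for carriers against non-carriers in striatum, and 0 in cortex. Depth limits the Hox genes, most of which had under 20 counts per genotype.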
